A study of Homo sapiens with 66 samples.

Results

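The 10 genes described here make or oversee the 3′ ends of replication-dependent histone mRNAs. They are SLBP, NPAT, CASP8AP2, LSM10, LSM11, ERI1, SYMPK, CPSF2, CPSF3 and CSTF2, chosen by name for their known roles and matched by symbol to the Ensembl identifiers of the count files. They are 10 of 58051 genes in the files and 10 of 17812 genes that were abundant enough to test. Across 12 auxin treatments, LSM11 was the member that moved most. Its RNA fell to 0.337 of the untreated level after 3 h without GANP and to 0.457 after 2 h without NXF1. SLBP rose 1.44-fold after 8 h without RANGAP1, and no other member was called in any auxin treatment by the main test. After 2 h without TPR, LSM11 was at 0.657 of the untreated level. The main test did not call it there, while pairing the libraries by replicate number and some other settings did.

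The cells were DLD-1, a human colorectal adenocarcinoma line, and the libraries were total RNA depleted of ribosomal RNA, so histone mRNA without a poly(A) tail was counted too. In each tagged line both alleles of 1 gene encoded a fusion to the AID, a plant degron. Once auxin is added, the ligase subunit TIR1 marks the fusion protein for rapid destruction. TIR1 came from the RCC1 locus, every tagged line was a selected clone, and auxin was given at 1 mM. The labels name AID-NeonGreen-TPR, NUP153-NeonGreen-AID, NUP50-NeonGreen-AID, GAP1-NeonGreen-AID (RANGAP1), AID-FLAG-NXF1 and AID-HA-GANP1 cells, and the original DLD-1 cells without a tag. TPR, NUP153 and NUP50 form the basket of the nuclear pore, RANGAP1 activates the GTPase Ran, NXF1 is the main export receptor for mRNA, and GANP (gene MCM3AP) is the scaffold of the TREX-2 export complex. Each line had 3 untreated libraries and 3 libraries per auxin time. The times were 2 h for DLD-1, TPR and NXF1, 3 h for GANP, 2 h and 8 h for NUP153 and RANGAP1, and 3 h and 9 h for NUP50. A second TPR set, labelled old, had untreated, 2 h and 8 h libraries. A further pair of TPR groups had been given actinomycin D (ActD), which blocks transcription, with or without auxin at 2 h. The labels give no time for the untreated tagged cells.

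The 66 libraries held 18943661 to 55411411 counted reads each, with a median of 32285399. The methods of the study call the replicates independent and biological, while the labels do not name separate cultures, so p-values measure the spread between these libraries. No library repeated another of its group, since the 66 within-group pairs differed by at least 4.36 times the variance that counting alone gives. The AID tag acts on protein, so RNA of the tagged genes does not check the labels. CYP1A1 was higher in the auxin libraries of tagged lines (log2 fold change 5.87 ± 0.16 SE in RANGAP1 cells at 2 h, for example) and lower in the DLD-1 libraries labelled auxin (-3.84 ± 0.13 SE). DLD-1 groups are therefore named by their labels only. The colon epithelium markers EPCAM, KRT8, KRT18, KRT20, CDX2, VIL1 and CDH1 summed to 5320 to 14500 CPM per library, where CPM is the count of a gene scaled to the size of its library. The 7 markers of leukocytes, endothelium, fibroblasts, muscle and liver summed to 0.0816 to 2.33 CPM.

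Most mRNAs end in a poly(A) tail, but replication-dependent histone mRNAs end just after a short conserved hairpin. SLBP binds that hairpin, and the U7 small nuclear ribonucleoprotein (snRNP) base-pairs with the RNA just downstream. The U7 ring holds LSM10 and LSM11 in place of 2 Sm proteins used by spliceosomal snRNPs, LSM11 contacts FLASH (gene CASP8AP2), and the pair recruits symplekin (SYMPK), CPSF2, the endonuclease CPSF3 and CSTF2, which also serve polyadenylation. NPAT is the transcriptional coactivator that gathers at histone gene clusters, and the exonuclease ERI1 trims and helps degrade the same hairpin. These steps peak in S phase, when new DNA must be packed.

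The RNA that LSM10 and LSM11 assemble on is shown first because LSM11 carried the largest change. U7 snRNA (RNU7-1, ENSG00000238923) is 63 bases long and lies at chr12:6943816-6943878 on the plus strand of GRCh38. It is printed as the DNA letters of GENCODE, 5′ to 3′, with the start of its ring-binding site at bases 21 to 28 in capitals.

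RNU7-1: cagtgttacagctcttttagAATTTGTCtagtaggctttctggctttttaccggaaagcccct

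RNU7-1 was at 0 counts in 33 of the 66 libraries, and these were all libraries of the NUP153, NUP50, TPR old and ActD sets. In the other sets it had 39 to 154 counts, so its level could not be followed across lines.

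The hairpin bound by SLBP and ERI1 is shown for the histone genes that responded most, namely the 3 with the largest called rise after GANP loss and the 3 with the largest called fall after 8 h of RANGAP1 loss. Capitals mark the arms of the hairpin, 6 bases each around a 4-base loop, with 5 flanking bases on either side, in mRNA orientation.

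H2AC4: gcaaaGGCTCTtttcAGAGCCaccta

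H2BC14: ccaaaGGCTCTtttcAGAGCCgtcca

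H2AC8: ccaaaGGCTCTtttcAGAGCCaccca

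H1-3: taaacGGCTCTtttcAGAGCCaccca

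H2AC25: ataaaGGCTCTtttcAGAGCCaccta

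H2BC11: ctaacGGCTCTtttaAGAGCCaccca

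In GRCh38 these lie at chr6:26033093-26033118 (H2AC4, minus strand), chr6:27815464-27815489 (H2BC14, plus), chr6:26217412-26217437 (H2AC8, plus), chr6:26234212-26234237 (H1-3, minus), chr1:228457364-228457389 (H2AC25, minus) and chr6:27132316-27132341 (H2BC11, minus). The arms were the same 6 letters in all 6 genes. Each of the 6 was called higher after GANP loss and lower after 8 h of RANGAP1 loss, so they do not contrast genes that rose with genes that fell. A hairpin of that shape, with any letters in perfectly paired arms, was found on the mRNA strand within 100 bases after the stop codon in 52 of 54 tested histone genes (96.3%). The same search found one after 931 of 19924 canonical protein-coding transcripts (4.67%).

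All 10 members passed the filter of more than 1 CPM in at least 4 of the 60 libraries without ActD, and each exceeded 1 CPM in all 60. Levels between genes are compared as CPM per kilobase of annotated exon, averaged over the 8 untreated groups. SLBP was highest at 85.8, followed by CPSF3 at 34.0, CSTF2 at 20.5 and CPSF2 at 14.2. ERI1 (10.6), SYMPK (9.02), LSM10 (8.96), CASP8AP2 (6.91) and NPAT (5.73) came next, and LSM11 was lowest at 2.25. The first 3 stood clear of the next gene in all 8 untreated groups, and NPAT stood clear of LSM11 in all 8. SYMPK and LSM10 stood clear of their lower neighbor in 3 of 8 groups each, so their order was not resolved. These per-kilobase levels are shown in the plot of the untreated libraries.

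**Figure D1:**
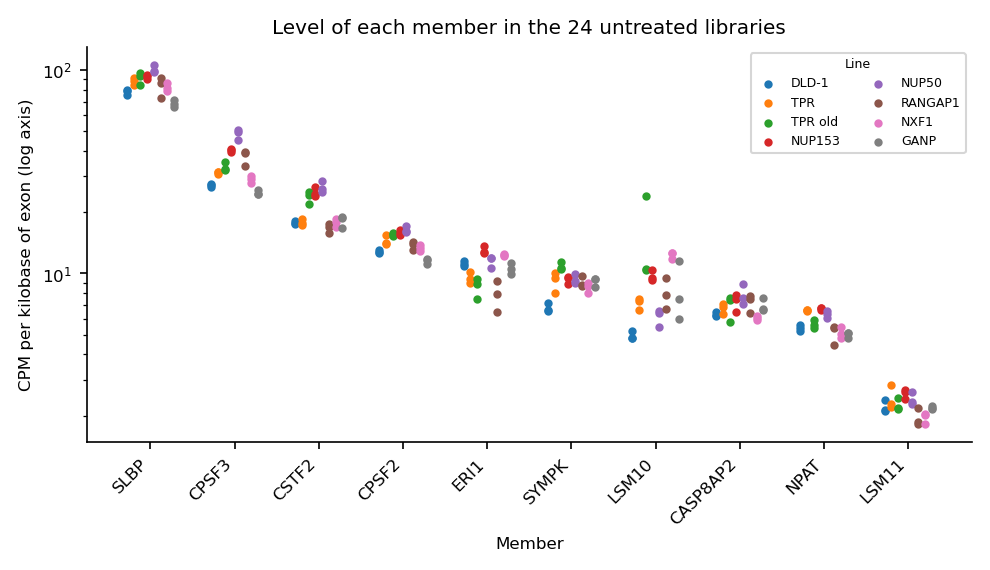
Level of each member in CPM per kilobase of exon (log axis) in the 24 untreated libraries, 1 point per library and 1 color per line. SLBP is highest in every line and LSM11 lowest, and LSM10 has the widest spread within the TPR old set.

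Each auxin group was compared with untreated cells of its own line and label set. A gene was called when the Benjamini-Hochberg adjusted p of the edgeR quasi-likelihood test over 17812 genes was below 0.05 and the fold was at least 1.3 or at most 0.7. After NXF1 loss for 2 h, 1 of 10 members was called (LSM11, lower) and 8.12% of all tested genes were. After GANP loss for 3 h the same gene was called, 1 of 10 against 15.5% of all genes. After RANGAP1 loss for 8 h, 1 of 10 was called (SLBP, higher) against 14.8%. The share of members called in these groups was thus close to the share of all genes. Groups whose libraries did not overlap are described below by gene. Such separation was found for 45.7% of all tested genes after GANP loss, 39.5% after NXF1 loss and 42.1% after 8 h of RANGAP1 loss. It was found for 16.7% for TPR at 2 h, 8.22% for NUP153 at 2 h and 19% for NUP153 at 8 h.

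In the other groups edgeR called no member. The share of all genes called there was 0.477% for TPR at 2 h, 0.444% for TPR old at 2 h, 3.59% for TPR old at 8 h, 0.0225% for NUP153 at 2 h, 1.32% for NUP153 at 8 h, 0.18% for NUP50 at 3 h, 0.365% for NUP50 at 9 h, 0.545% for RANGAP1 at 2 h and 0.0561% for DLD-1. Members with an unadjusted p below 0.05 numbered 2 each for TPR at 2 h, TPR old at 8 h and NUP50 at 9 h. Among all 17812 genes the numbers there were 1679, 4313 and 2940. There was 1 member each for NUP153 at 2 h, NUP153 at 8 h and NUP50 at 3 h, beside 667, 2459 and 1091 genes. The rest had 0 members, beside 2151 genes for TPR old at 2 h, 1297 for RANGAP1 at 2 h and 558 for DLD-1. DESeq2 called 1 member for TPR at 2 h (LSM11, lower) and 0 in the others. The median log2 fold change of the 10 members lay between -0.12 (NXF1) and 0.14 (TPR old at 8 h), and that of all tested genes between -0.01 and 0.01. The matrix of fold changes gives every value.

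**Figure D2:**
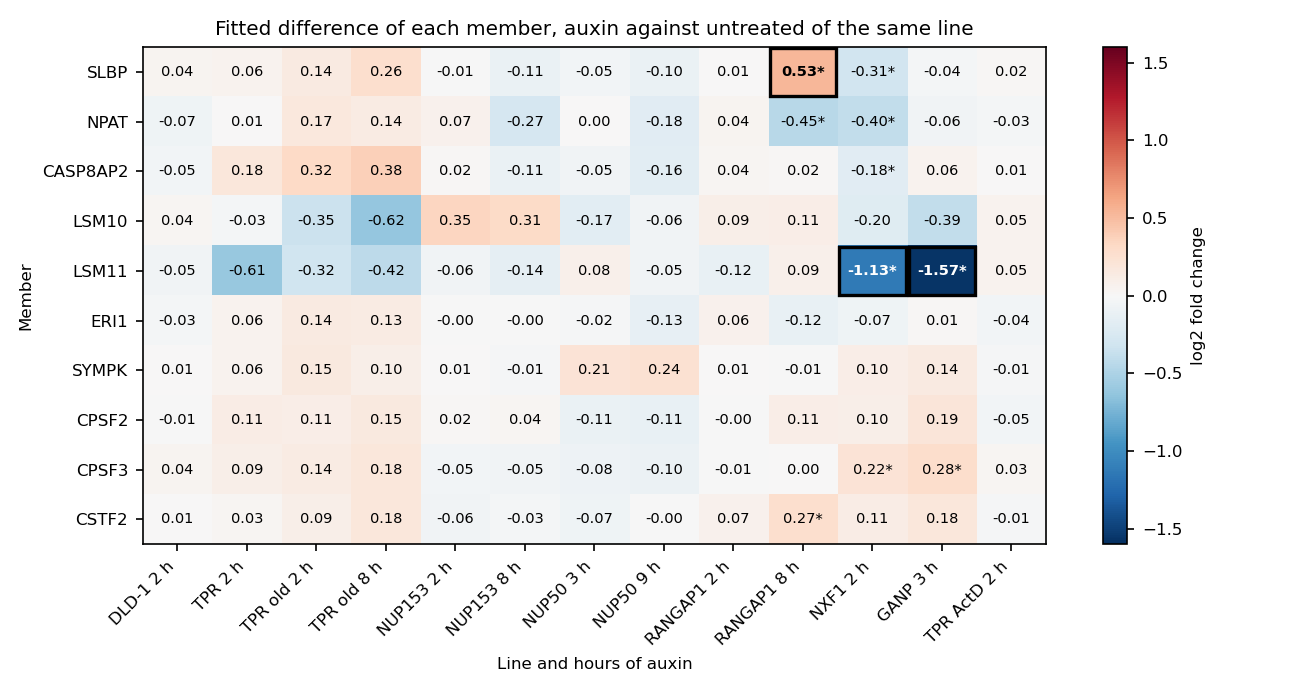
Log2 fold change of each member (rows) after auxin against untreated cells of the same line (columns), with the last column comparing auxin plus ActD with ActD alone. Asterisks mark an adjusted p below 0.05 and boxes mark calls, which were LSM11 after NXF1 and GANP loss and SLBP after 8 h of RANGAP1 loss.

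LSM11 (ENSG00000155858, chr5:157743712-157760709, plus strand, 4 exons in GENCODE 44) encodes the U7 subunit that binds FLASH. In GANP cells it was at 14.1, 14.4 and 14.6 CPM untreated and at 4.84, 5.16 and 4.63 CPM after 3 h of auxin. All 3 auxin libraries lay far below all 3 untreated ones, a log2 fold change of -1.57 ± 0.10 (SE, n = 3 per group, edgeR adjusted p = 2.88e-06). In bulk RNA, fewer cells with the transcript and less of it per cell cannot be told apart.

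In NXF1 cells LSM11 was at 11.9, 13.3 and 13.4 CPM untreated and at 5.48, 5.48 and 6.86 CPM after 2 h of auxin, again with no overlap, and the log2 fold change was -1.13 ± 0.11 (SE, n = 3, edgeR adjusted p = 4.03e-05). These values rest on 160 to 248 counts per auxin library in NXF1 cells and 186 to 204 in GANP cells.

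In TPR cells LSM11 was at 18.5, 14.4 and 14.9 CPM untreated and at 11.5, 10.2 and 9.79 CPM after 2 h. The groups did not overlap, and the log2 fold change of -0.61 ± 0.12 (SE, n = 3) had an adjusted p of 0.0616 in edgeR, so LSM11 was not called. The replicate numbers paired these libraries, and with the replicate number as a block the adjusted p was 4.67e-08 at a log2 fold change of -0.61, a call. In the TPR old set LSM11 was at 16.1, 14.4 and 14.2 CPM untreated, at 11.6, 13.1 and 11.2 CPM at 2 h and at 11.0, 10.4 and 12.2 CPM at 8 h. Each auxin group lay below the untreated libraries, with log2 fold changes of -0.32 ± 0.15 at 2 h (adjusted p = 0.438) and -0.42 ± 0.15 at 8 h (adjusted p = 0.129), both SE from edgeR with n = 3.

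In the presence of ActD, LSM11 was at 11.4, 8.33 and 11.4 CPM without auxin and at 10.5, 9.61 and 12.3 CPM with it. The groups overlapped, and the log2 fold change was 0.05 ± 0.16 (SE, edgeR adjusted p = 1). No member and no other gene was called in that comparison (0% of tested genes), where 78 genes and 0 members had an unadjusted p below 0.05 and DESeq2 called 0 genes. CPM is a share of each library, so it does not show how much of any RNA was left after transcription was blocked.

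In the remaining lines LSM11 differed little from untreated. Its log2 fold change was -0.05 ± 0.08 in DLD-1 libraries labelled auxin, -0.06 ± 0.08 and -0.14 ± 0.10 after NUP153 loss for 2 h and 8 h, 0.08 ± 0.11 and -0.05 ± 0.10 after NUP50 loss for 3 h and 9 h, and -0.12 ± 0.12 and 0.09 ± 0.11 after RANGAP1 loss for 2 h and 8 h (SE). The untreated and auxin libraries of each of these lines overlapped, as the plot of both U7 ring subunits shows.

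**Figure D3:**
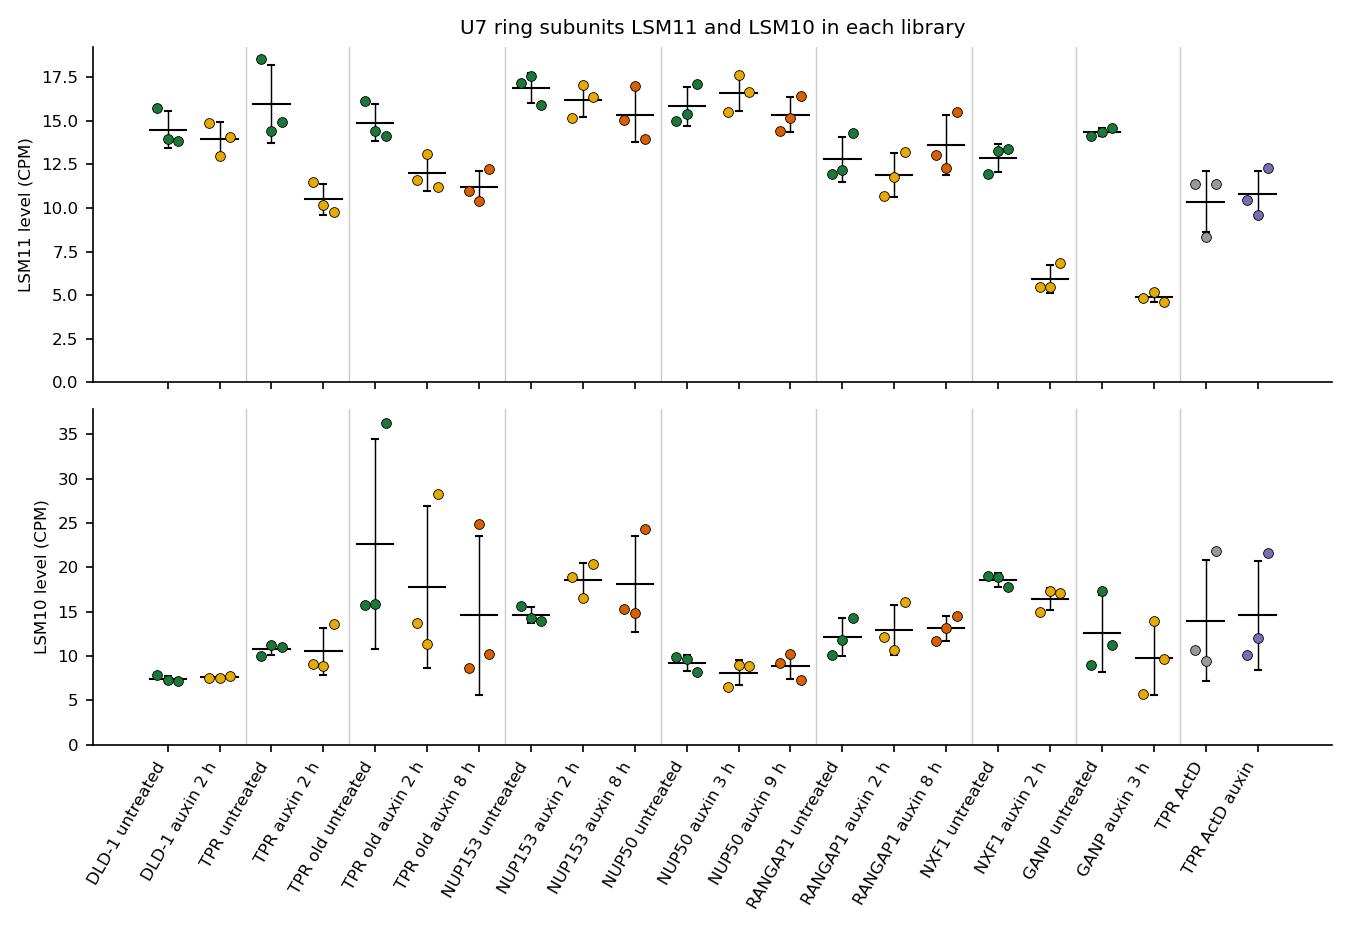
LSM11 (top) and LSM10 (bottom) in CPM in each library, grouped by line and treatment, with the mean and SD of 3 libraries. LSM11 drops after NXF1 and GANP loss to 4.63 to 6.86 CPM, below all other libraries, while LSM10 varies most between replicates of the TPR old and ActD sets.

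LSM10 (ENSG00000181817, chr1:36391238-36397908, minus strand, 2 exons) encodes the ring partner of LSM11. It had the widest range of levels of the 10 members as a ratio of highest to lowest, 6.4, from 5.68 to 36.3 CPM over all libraries. In GANP cells it was at 9.01, 17.4 and 11.3 CPM untreated and at 5.68, 14.0 and 9.67 CPM after auxin in the same replicate order. The groups overlapped, although each auxin library was below the untreated library of its number. Its log2 fold change was -0.39 ± 0.29 (SE, adjusted p = 0.347 in edgeR), and with the replicate block the adjusted p was 9.68e-06 at -0.39, a fold above the limit of 0.7.

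In the TPR old set LSM10 was at 15.7, 15.8 and 36.3 CPM untreated, at 13.8, 11.3 and 28.3 CPM at 2 h and at 8.70, 24.9 and 10.2 CPM at 8 h. One library of each group stood far above the other two, replicate old3 in the untreated and 2 h groups and old2 in the 8 h group. The 8 h log2 fold change was -0.62 ± 0.45 (SE, edgeR adjusted p = 0.435) and became -1.30 (adjusted p = 0.0192) without the high 8 h library. The spread of LSM10 in this set is thus larger than the difference. After NUP153 loss for 2 h, LSM10 was at 18.9, 16.6 and 20.4 CPM against 15.7, 14.3 and 14.0 CPM untreated. These groups did not overlap, yet the log2 fold change of 0.35 ± 0.10 (SE) had an edgeR adjusted p of 0.774. With the replicate number, which paired these libraries, as a block, the adjusted p was 0.00264 at 0.35, a fold below the limit of 1.3.

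SLBP (ENSG00000163950, chr4:1692731-1712344, minus strand, 8 exons) encodes the protein that binds the hairpin. In RANGAP1 cells it was at 172, 164 and 137 CPM untreated, at 167, 164 and 147 CPM after 2 h and at 249, 229 and 206 CPM after 8 h. The 8 h libraries lay above all others of the line, while the 2 h libraries overlapped the untreated ones. At 8 h the log2 fold change was 0.53 ± 0.10 (SE, n = 3, edgeR adjusted p = 0.00328), and at 2 h it was 0.01 ± 0.10 (adjusted p = 1).

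After NXF1 loss SLBP was at 131, 137 and 115 CPM against 154, 163 and 149 CPM untreated. All auxin libraries were lower, with a log2 fold change of -0.31 ± 0.06 (SE, edgeR adjusted p = 0.00509), which passed the p threshold but not the fold. After GANP loss SLBP was at 140, 114 and 126 CPM against 135, 124 and 129 CPM, and these groups overlapped (log2 fold change -0.04 ± 0.09 SE). Elsewhere its log2 fold changes ranged from -0.11 (NUP153 at 8 h) to 0.26 (TPR old at 8 h), and none passed the adjusted p.

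NPAT (ENSG00000149308, chr11:108157215-108222638, minus strand, 18 exons) encodes the coactivator of histone gene transcription, a target of cyclin E and its kinase CDK2. In RANGAP1 cells it was at 33.4, 40.9 and 40.7 CPM untreated, at 34.7, 41.4 and 42.7 CPM at 2 h and at 26.6, 29.3 and 28.7 CPM at 8 h. The 8 h libraries were below all others, so that SLBP and NPAT moved in opposite directions in the same libraries. The log2 fold change of NPAT was -0.45 ± 0.09 (SE, edgeR adjusted p = 0.00512), past the p threshold and short of the fold limit.

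NPAT was also lower after NXF1 loss, at 28.8, 30.0 and 30.0 CPM against 36.2, 37.9 and 41.0 CPM untreated, without overlap (log2 fold change -0.40 ± 0.06 SE, adjusted p = 0.000993). After NUP153 loss for 8 h it was at 44.4, 41.4 and 40.3 CPM against 50.9, 49.8 and 50.9 CPM. The groups did not overlap, and the log2 fold change of -0.27 ± 0.07 (SE) had an edgeR adjusted p of 0.0925. After GANP loss NPAT was at 39.4, 37.8 and 32.3 CPM against 36.1, 38.5 and 38.2 CPM, which overlapped. Both genes are shown by library in the plot of SLBP and NPAT.

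**Figure D4:**
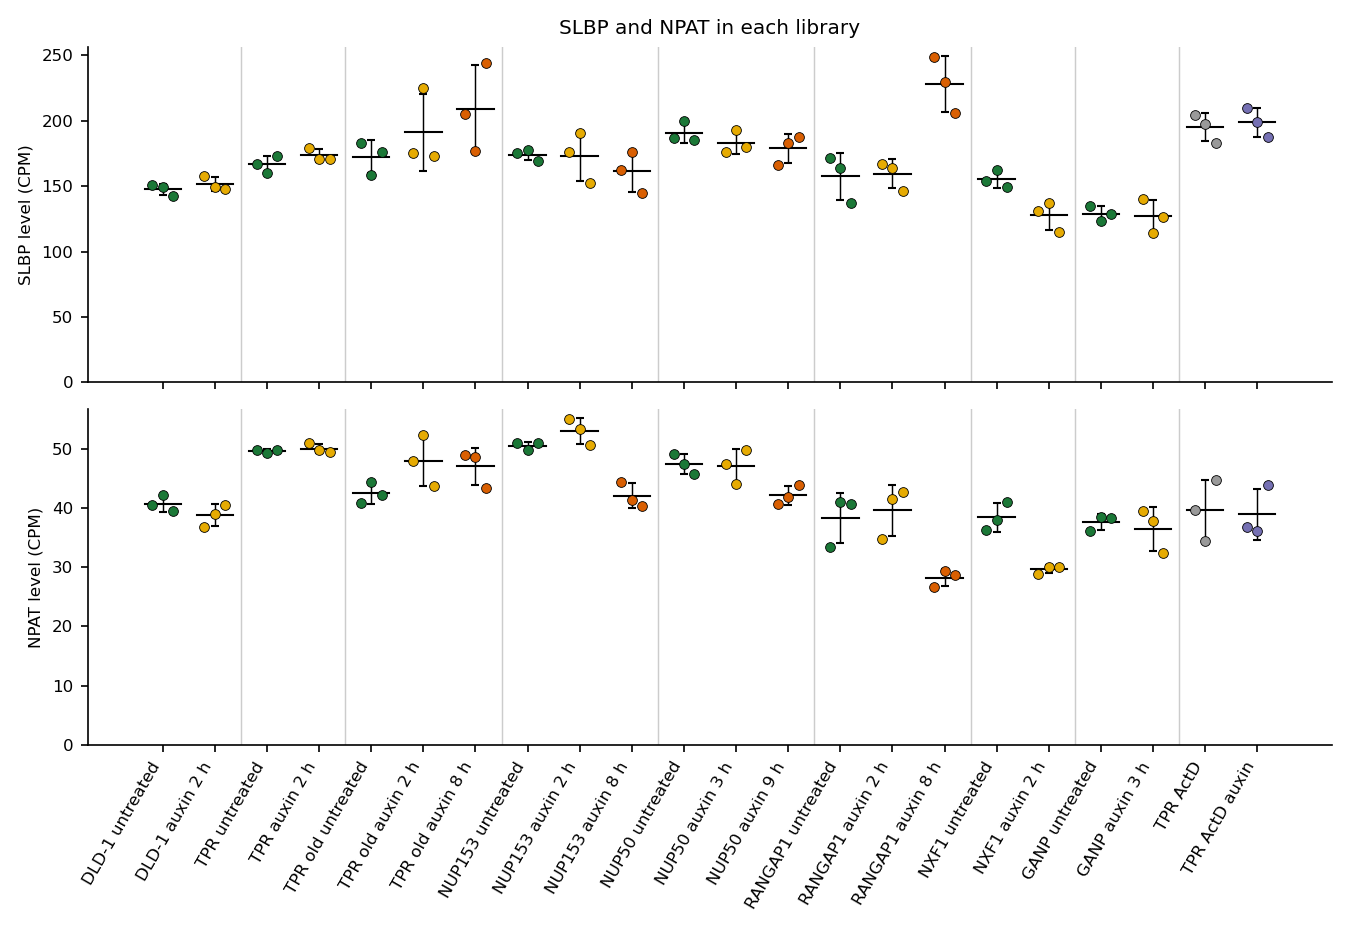
SLBP (top) and NPAT (bottom) in CPM in each library, grouped by line and treatment, with the mean and SD of 3 libraries. After 8 h of RANGAP1 loss SLBP reaches 206 to 249 CPM and NPAT falls to 26.6 to 29.3 CPM, and after NXF1 loss both are below their untreated libraries.

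CASP8AP2 (ENSG00000118412, chr6:89829894-89874436, plus strand, 9 exons) encodes FLASH, the protein that joins U7 to the cleavage complex. After NXF1 loss it was at 42.7, 44.8 and 45.1 CPM against 47.9, 50.5 and 49.4 CPM untreated, a log2 fold change of -0.18 ± 0.05 (SE, edgeR adjusted p = 0.0338). In TPR cells it was on the other side, at 60.3, 62.2 and 65.4 CPM after 2 h against 58.0, 51.4 and 55.9 CPM. The log2 fold change there was 0.18 ± 0.07 (SE, adjusted p = 0.447, and 0.018 with the replicate block). The TPR old set gave 0.32 ± 0.15 at 2 h and 0.38 ± 0.15 at 8 h, neither past the adjusted p (0.433 and 0.152), and both share the same 3 untreated libraries.

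ERI1 (ENSG00000104626, chromosome 8, 7 exons) encodes the exonuclease that acts on the hairpin. In all 12 auxin groups its libraries overlapped the untreated ones, and its log2 fold changes ranged from -0.13 ± 0.08 (NUP50 at 9 h) to 0.14 ± 0.13 (TPR old at 2 h), SE. Within the RANGAP1 line its untreated libraries alone spanned 41.3 to 58.4 CPM. None of its values passed the adjusted p.

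The 4 members shared with the polyadenylation machinery moved little. CPSF3 (ENSG00000119203, chr2:9423651-9473101, plus strand, 18 exons), the endonuclease that makes the cut, was at 114, 106 and 118 CPM after GANP loss against 90.4, 90.9 and 95.2 CPM untreated. The log2 fold change was 0.28 ± 0.07 (SE, edgeR adjusted p = 0.0136). After NXF1 loss it was at 136, 134 and 112 CPM against 111, 108 and 103 CPM, a log2 fold change of 0.22 ± 0.07 (adjusted p = 0.0386). In both lines the lowest auxin library was above the highest untreated one, in NXF1 cells by a narrow margin, and neither change reached the fold limit.

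CSTF2 (ENSG00000101811, chrX:100820391-100841520, plus strand, 14 exons), an RNA-binding subunit of the cleavage complex, was at 58.3, 55.7 and 52.4 CPM after 8 h of RANGAP1 loss against 47.8, 46.7 and 43.3 CPM untreated. These groups were separate, with a log2 fold change of 0.27 ± 0.07 (SE, edgeR adjusted p = 0.0199). CPSF2 (ENSG00000165934, chr14:92121969-92172145, plus strand, 16 exons), the partner of CPSF3, was at 195, 175 and 170 CPM after GANP loss against 159, 151 and 158 CPM. Its log2 fold change of 0.19 ± 0.08 had an adjusted p of 0.0775, and 0.00053 with the replicate block. SYMPK (ENSG00000125755, chr19:45815410-45863194, minus strand, 27 exons), the scaffold of the complex, has exons that overlap a gene on the opposite strand. It was highest relative to untreated after NUP50 loss for 9 h, at 113, 112 and 126 CPM against 94.5, 96.4 and 104 CPM. That log2 fold change of 0.24 ± 0.07 (SE) had an edgeR adjusted p of 0.125. With the replicate block, CSTF2 passed the adjusted p after GANP loss (0.18, adjusted p = 0.00349) and NXF1 loss (0.11, 0.0493). SYMPK did so after GANP loss (0.14, 0.0192) and NXF1 loss (0.10, 0.0401), and CPSF2 after NXF1 loss (0.10, 0.0369). All of these log2 fold changes were short of the fold limit. CPSF2 was lower after NUP50 loss, at -0.11 for 3 h and for 9 h, without passing the adjusted p.

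Long auxin was then compared with short auxin within a line, which takes the untreated libraries out of the comparison. For RANGAP1, 8 h against 2 h called 1 of 10 members (SLBP, higher) and 8.8% of all genes. SLBP had a log2 difference of 0.52 ± 0.09 (SE, edgeR adjusted p = 0.00397), and NPAT had -0.49 ± 0.09 (adjusted p = 0.00666), short of the fold limit. For NUP153, 8 h against 2 h called 0 of 10 members and 1.95% of all genes, and NPAT had a log2 difference of -0.35 ± 0.07 (adjusted p = 0.0297). No member was called between 9 h and 3 h of NUP50 loss (0.258% of all genes) or between 8 h and 2 h in the TPR old set (0% of all genes, with 48 genes and 0 members at an unadjusted p below 0.05). DESeq2 called 0 members in these last 3 comparisons and 0 genes in the last. For NUP153 and NUP50, 1 member each had an unadjusted p below 0.05, beside 2884 and 1486 of all 17812 genes.

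The effects of auxin in the TPR, GANP and NXF1 lines were compared with each other by the interaction of line and auxin, where a member differed if its adjusted p was below 0.05. The GANP time was 3 h and the others 2 h, so line and time cannot be told apart for GANP. LSM11 fell less after TPR loss than after GANP loss, by 0.97 ± 0.15 on the log2 scale (SE, edgeR adjusted p = 0.00184), 1 of 10 members against 5.77% of all genes. With the replicate block LSM10 also differed (log2 difference 0.36, adjusted p = 0.0465), giving 2 members.

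Between TPR and NXF1, 3 of 10 members differed against 2.28% of all genes. SLBP (0.37 ± 0.09, adjusted p = 0.0386), NPAT (0.41 ± 0.08, adjusted p = 0.0167) and CASP8AP2 (0.37 ± 0.09, adjusted p = 0.0328) were each lower after NXF1 loss relative to TPR loss on the log2 scale (SE, edgeR). The number that differed ranged from 0 to 3 when single libraries were left out, and it was 0 without NXF1 auxin replicate 1 and 1 without TPR untreated replicate 2 or 3, TPR auxin replicate 3 or any untreated NXF1 library. LSM11 differed by 0.53 ± 0.17 with an adjusted p of 0.143, and 0.00207 with the replicate block. Between GANP and NXF1 no member differed in edgeR (2.62% of all genes, with 4 members at an unadjusted p below 0.05 and 0 past the adjusted p in DESeq2). With the replicate block 4 members differed, with log2 differences of 0.31 for SLBP (adjusted p = 0.000423), 0.38 for NPAT (0.00189), 0.28 for CASP8AP2 (0.00502) and -0.40 for LSM11 (0.0272).

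Other genes of the pathway were taken from lists of known components. Every list count below, histone genes included, is to be set beside the share of all tested genes called. That share was 15.5% after GANP loss, 8.12% after NXF1 loss and 14.8% after 8 h of RANGAP1 loss. For NUP153 and TPR old at 8 h it was 1.32% and 3.59%. Of 10 partners of U7 and the cap-binding complex, 1 was called after GANP loss and 1 after NXF1 loss, and both times it was COIL, which encodes coilin, the scaffold of the Cajal bodies where snRNPs mature. Its log2 fold changes were -0.93 ± 0.09 (adjusted p = 3.48e-05) and -0.62 ± 0.06 (adjusted p = 3.31e-05), SE from edgeR. After RANGAP1 loss for 8 h, 1 was called, NCBP2, a subunit of the nuclear cap-binding complex, at 0.65 ± 0.07 (adjusted p = 9.84e-05). The median of the list was 0.16 after GANP loss and 0.11 after NXF1 loss, beside 0.01 for all genes.

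Of 13 genes for SLBP control and histone mRNA decay, 4 were called after GANP loss, 3 of them lower. These were the ubiquitin ligase adaptors FEM1A, FEM1B and FEM1C, which target SLBP for destruction. FEM1A was at a log2 fold change of -1.03 ± 0.07 (adjusted p = 4.1e-06), FEM1B at -1.04 ± 0.09 (1.7e-05) and FEM1C at -0.59 ± 0.11 (0.0022), SE from edgeR. The fourth was the uridylyl transferase TUT7, which rose by 0.42 ± 0.07 (adjusted p = 0.00152). After NXF1 loss 2 were called, both lower, FEM1B at -0.71 ± 0.05 (adjusted p = 8.49e-06) and FEM1C at -0.80 ± 0.07 (1.43e-05). After 8 h of RANGAP1 loss 5 were called, all higher, led by UPF1, the helicase of histone mRNA decay, at 0.79 ± 0.06 (adjusted p = 3.1e-05). FEM1A was at 0.64 ± 0.07 (0.000145) and FEM1C at 0.45 ± 0.13 (0.0299). The number called for RANGAP1 at 8 h was 4 whenever a single library was left out. After NUP153 loss for 8 h 2 were called, both higher, FEM1A (0.70 ± 0.15, adjusted p = 0.0484) and CCNF (0.58 ± 0.07, adjusted p = 0.00749). FEM1A was also called, lower, in the TPR old set at 8 h (-0.75 ± 0.16, adjusted p = 0.0393).

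Of 15 further polyadenylation genes, 2 were called after GANP loss. CSTF2T, the single-exon paralog of CSTF2, was at -0.86 ± 0.09 (adjusted p = 6.29e-05) and CPSF7 at -0.66 ± 0.07 (5.68e-05), SE from edgeR. CSTF2T was also lower in the TPR old set at 8 h (-1.13 ± 0.21, adjusted p = 0.0291), while CSTF2 itself had 0.18 ± 0.07 and 0.18 ± 0.11 in those same comparisons. After 8 h of RANGAP1 loss 3 were called higher, CPSF4, RBBP6 and PCF11, at 0.47, 0.44 and 0.38 on the log2 scale. The number fell to 1 without untreated RANGAP1 replicate 1.

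Of 8 regulators of histone transcription, 3 were called after 8 h of RANGAP1 loss. CCNE1, which encodes the cyclin that activates NPAT through CDK2, was at 0.67 ± 0.09 (adjusted p = 0.000566), YY1AP1 at 0.43 ± 0.09 (0.00468) and POU2F1, the OCT1 factor of H2B promoters, at -0.63 ± 0.10 (0.00179), SE from edgeR. GON4L was called higher after GANP loss (0.60 ± 0.08, adjusted p = 0.000291) and NXF1 loss (0.38 ± 0.07, adjusted p = 0.00204). Of 12 S-phase genes, 3 were called after 8 h of RANGAP1 loss, all higher, namely UNG (0.63), RRM2 (0.63) and PCNA (0.41). The share of all genes called there was 14.8%. In that comparison 9 of the 12 passed the adjusted p, beside 4752 of all 17812 genes. The number of S-phase genes called ranged from 2 to 5 when single libraries were left out. It was 5 without untreated RANGAP1 replicate 1 and 5 without replicate 2. After GANP and NXF1 loss 0 of the 12 were called by edgeR and 0 by DESeq2. The unadjusted p was below 0.05 for 3 of the 12 in each, beside 7386 and 6298 of all 17812 genes. The part of cell cycle phase in the SLBP and NPAT values was not tested.

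The substrates of these factors were 64 replication-dependent histone genes, of which 54 were tested. After 8 h of RANGAP1 loss, with SLBP higher and NPAT lower, 33 of 54 were called lower and 0 higher, with a median log2 fold change of -0.60 beside -0.01 for all genes. After 3 h of GANP loss, with LSM11 at its lowest, 34 of 54 were called higher and 0 lower, with a median of 0.47 beside 0.01. After NXF1 loss, where LSM11 also fell, 1 of 54 was called lower and the median was -0.01. After NUP153 loss for 8 h, the median of the 52 with counts was -0.34. Of the 54, 24 passed the adjusted p, beside 342 of all 17812 genes, and 4 were called, all lower. The number called ranged from 0 to 10 when single libraries were left out. It was 0 without auxin replicate 2, without auxin replicate 3 or without untreated replicate 1. Between 8 h and 2 h of NUP153 loss, 33 of 54 passed the adjusted p, beside 546 of all genes, with a median of -0.39. Of these, 6 were called, all lower. H3C4 and H2AC15 were listed at 0 in the same 33 libraries as RNU7-1 and at 1151 to 17544 counts in the others, so they could not be called in the NUP153, NUP50 and TPR old comparisons.

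The named hairpins belong to genes at both ends of these ranges. H2AC4 was at 0.94 ± 0.13 after GANP loss and at -1.16 ± 0.10 after 8 h of RANGAP1 loss, and H1-3 was at -1.59 ± 0.11 in the latter (log2 fold change, SE). Between GANP and NXF1 loss, 29 of 54 histone genes differed by the interaction test, all higher after GANP loss, a number that was 47 with the replicate block and 15 without untreated NXF1 replicate 1. Many histone genes are near-identical copies, so counts of single genes are uncertain where reads could belong to several. The plot of histone genes sets their spread beside LSM11 and SLBP.

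**Figure D5:**
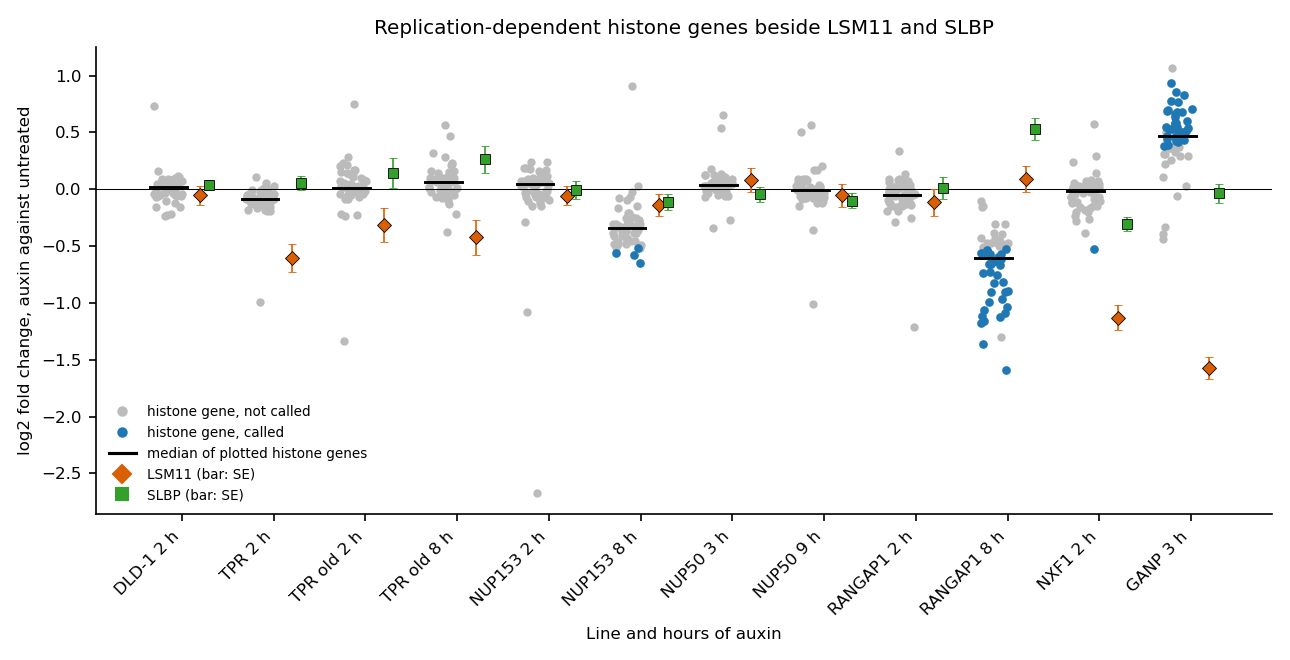
Log2 fold change of each of the 54 tested histone genes (points, blue where called, with the median as a black line) after auxin in each line, 52 where H3C4 and H2AC15 had no counts, beside LSM11 (orange) and SLBP (green) with SE bars. The histone genes shift up after GANP loss with LSM11 down, and shift down after 8 h of RANGAP1 loss with SLBP up. They shift down less after 8 h of NUP153 loss (median -0.34) and stay near 0 after NXF1 loss.

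LSM11 and LSM10 had the widest range of group means over the 12 auxin groups, 1.63 and 1.02 on the log2 scale. Among 10051 genes with a mean of at least 10 CPM, those whose 12 differences from untreated were most like those of LSM11 were ZNF48 (Pearson r = 0.974), RHOB (0.972) and KLHL25 (0.971). ZNF48 was at -1.59 after GANP loss and -1.22 after NXF1 loss in log2 CPM, RHOB at -1.38 and -1.10, and KLHL25 at -1.95 and -1.57. Those nearest to LSM10 were NUDT16 (0.971), ENSG00000272617 (0.96) and BAG5 (0.958). Groups of a line share untreated libraries, so the 12 points are not independent, and r is given as a description.

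The members differ in the number of exons, which the choice of genes did not use. LSM10 and LSM11, with 2 and 4 exons, had the lowest log2 fold changes of the 10 after GANP loss, and the 3 highest values there belonged to CPSF3, CPSF2 and CSTF2, with 18, 16 and 14 exons. Over all tested protein-coding genes the median log2 fold change after GANP loss was -0.44 for 288 single-exon genes, -0.46 for 587 genes with 2 exons, -0.15 for 1798 genes with 3 to 4 exons and 0.09 for 2780 genes with more than 16. Among the genes with 3 to 4 exons, 0.89% were as low as LSM11 or lower after GANP loss, and 1.78% were after NXF1 loss. In GANP cells NPAT, with 18 exons, ranked 3 from the lowest, and SYMPK, with 27, ranked 7. In NXF1 cells NPAT ranked next after LSM11. After 2 h of TPR loss LSM11 and LSM10 were again the 2 lowest, at -0.61 and -0.03. The highest there was CASP8AP2, with 9 exons, at 0.18. The part of exon number in the values of the members was not tested.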

How the data were processed

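RNA-seq was made from DLD-1 cells in 22 groups of 3 libraries. The authors deposited raw read counts per gene (STAR and featureCounts, versions 2.6.1c and 1.5.2 per the submitters' processing notes, GRCh38), without normalization. Counts were joined by Ensembl identifier, and 56948 of 58051 identifiers matched GENCODE 44. Genes above 1 CPM in at least 4 of 60 libraries without ActD were tested with edgeR 4.0.16 (TMM, quasi-likelihood) on R 4.3.3, each comparison fitted on its own libraries. P-values were Benjamini-Hochberg adjusted over 17812 genes. The 10 genes called in DLD-1 were removed from the calls of tagged lines. Levels in CPM used TMM factors over all 66 libraries. On counts simulated for GANP at 3 h (17812 genes), the test recovered 36 of 40 genes set to a log2 fold change of -0.6 and 40 of 40 set to -1. Recovery meant an adjusted p below 0.05, without the fold limit. TPR libraries were not simulated, so these numbers do not apply to them.

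The replicate numbers were taken as pairs where same-numbered libraries deviated together (all 3 correlations above 0.1), which held in 9 of 17 comparisons, among them TPR, NXF1 and GANP, RANGAP1 at both times and ActD. Of every list of pathway genes, the called genes of an auxin comparison were named, at most 3 by size of log2 fold change. Genes named beyond that were chosen after their values were seen. Called genes of the marker and histone lists were not all named. The genes and lists were chosen with earlier results of these data known. Alternatives were RLE scaling, DESeq2 1.42.0, other filters, a replicate block, 1 fit over 60 libraries, other call rules and leaving out each library. In 24 libraries (DLD-1, GANP, NXF1 and plain TPR) mitochondrial genes had no counts, so levels were not tested between lines. Ranges and means of levels over several lines are descriptions only. Precision of counts covers counting error only. Sequences come from GRCh38 and GENCODE 44.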

Additional observations from a re-analysis of the deposited data

Results flagged for a closer look

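Effects of auxin that differed between lines by the interaction test were those of LSM11, lower after GANP than TPR loss by 0.97 on the log2 scale, and of SLBP (0.37), NPAT (0.41) and CASP8AP2 (0.37), lower after NXF1 than TPR loss. The number of members that differed between TPR and NXF1 ranged from 0 to 3 when single libraries were left out, and SLBP and CASP8AP2 lost the adjusted p in 11 and 10 of 17 alternatives.

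For 4 members, all 3 auxin libraries lay above all untreated ones in some auxin groups and below them in others, and apart from CASP8AP2 between TPR at 2 h and NXF1, given above, these differences were not tested. SLBP was above in 1 group (RANGAP1 at 8 h) and below in 1 (NXF1). CASP8AP2 was above in 3 groups (all 3 TPR groups) and below in 1 (NXF1). LSM10 was above in 1 (NUP153 at 2 h) and below in 1 (NXF1). CPSF2 was above in 3 (GANP, RANGAP1 at 8 h and TPR old at 8 h) and below in 2 (both NUP50 times). Such separation was found for 7.61% of all tested genes in DLD-1 and 45.7% after GANP loss, the ends of its range over the 12 groups. It was 39.5% for NXF1, 42.1% for RANGAP1 at 8 h and 8.22% for NUP153 at 2 h. For TPR at 2 h it was 16.7%, for TPR old 18.6% at 2 h and 28.7% at 8 h, and for NUP50 12.2% at 3 h and 21.3% at 9 h. Groups of 3 libraries are too small for a test of single outlying libraries.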

How the results depend on the processing

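The 17 pairs of a member and a comparison with an adjusted p below 0.05 kept their direction in all 221 alternative values, and 179 of these also kept the adjusted p below 0.05. LSM11 after GANP and NXF1 loss and SLBP after 8 h of RANGAP1 loss kept it in all 12 alternatives each, with log2 fold changes of -1.61 to -1.53, -1.26 to -1.07 and 0.44 to 0.60. NPAT in NXF1 cells and in RANGAP1 cells at 8 h kept it in all 12 as well. CASP8AP2 and CPSF3 after NXF1 loss lost it in 7 and 5 of 12 alternatives, and SLBP and CASP8AP2 in the TPR and NXF1 interaction in 11 and 10 of 17. Of 2279 values for the 183 other pairs, 42 passed the adjusted p.

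The number of members called for TPR at 2 h became 1 (LSM11) with DESeq2, with no filter, with the replicate block and with 1 fit over 60 libraries. With a lower limit of 1.3-fold in both directions, NPAT was added for RANGAP1 at 8 h (2 members) and for NXF1 (2 members). With the replicate block, 4 members differed between GANP and NXF1 and 2 between TPR and GANP. With RLE scaling, 1 member differed between TPR and NXF1. Leaving out 1 library at a time gave 0 to 2 members for TPR old at 8 h, 1 to 2 for RANGAP1 at 8 h and for RANGAP1 at 8 h against 2 h, 0 to 1 between GANP and NXF1 and 0 to 3 between TPR and NXF1, where the number was 0 without NXF1 auxin replicate 1 and 1 without TPR untreated replicate 2 or 3, TPR auxin replicate 3 or any NXF1 untreated library. The library whose loss gave 2 in TPR old was the 8 h replicate old2, which is high in LSM10. The causes were not tested. Where the numbers did not pair the samples, the block removed the adjusted p of NPAT for NUP153 at 8 h against 2 h (0.0555). For LSM11 (160 counts in its lowest library), counting error limits the smaller differences. Over all genes the number called by DESeq2 was more than 1.5 times that of edgeR in 10 comparisons, at 193 against 85 for TPR at 2 h, 421 against 79 and 1894 against 639 for TPR old at 2 h and 8 h, 38 against 4 and 389 against 235 for NUP153 at 2 h and 8 h, 92 against 32 and 154 against 65 for NUP50 at 3 h and 9 h, 176 against 97 for RANGAP1 at 2 h, 24 against 10 for DLD-1 and 88 against 46 for NUP50 at 9 h against 3 h. It was lower than that of edgeR for GANP (2518 against 2752), NXF1 (1191 against 1446), RANGAP1 at 8 h (2404 against 2645) and RANGAP1 at 8 h against 2 h (1474 against 1567).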
